A study of Mus musculus with 6 samples.

Results

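Adrenal cortex steroid synthesis was followed through 10 genes, STAR, CYP11A1, CYP11B1, CYP17A1, HSD3B1, HSD3B2, NR5A1, MC2R, FDX1 and SCARB1, among 18417 named genes measured in neuroblastoma xenografts. The genes were chosen for their known role in making steroid hormones, as a reading through human probe sets of host adrenal tissue in the tumours. The xenografts grew from SK-N-BE(2), an established human neuroblastoma line with amplified MYCN, injected into the adrenal gland of NSG mice, which lack T, B and natural killer cells. In the BL-8040 group, 3 mice received 400 µg of BL-8040, which blocks the chemokine receptor CXCR4, under the skin for 14 days without a break, starting 7 days after the cells were placed. The control group also held 3 mice with xenografts of this line in the same strain. The labels repeat the treatment text on the control samples, so the groups were taken from the sample titles. What control mice received in place of BL-8040 is not stated in the labels. Each tumour was read on 1 array of human probe sets, so mouse RNA was read only as far as it bound to human probes, and how far it did was not measured. The labels do not state the age of the mice.

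Steroid hormones are made from cholesterol in cells of the adrenal cortex, gonads and placenta. The pituitary hormone ACTH acts on its receptor, the product of MC2R, and through cyclic AMP and the transcription factor NR5A1, also called SF-1, raises the cholesterol supply and the enzymes of the pathway. Cholesterol enters the cell from lipoproteins through SCARB1, is moved into mitochondria by STAR and is cleaved there by CYP11A1, which receives electrons through the ferredoxin FDX1. HSD3B enzymes, CYP17A1, CYP21A2 and CYP11B1 then lead to cortisol in humans. The adult mouse cortex makes corticosterone with little CYP17A1, so that this gene is of small use as a marker of a mouse host gland. All 10 symbols have a mouse gene of the same name in the mouse RefSeq annotation (GRCm38.p6), but that annotation holds 7 protein-coding Hsd3b genes, and mouse and human members of this family with the same number are not matched one to one.

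The arrays had median log2 signals between 5.35 and 5.42. BL-8040 replicate 3 stood apart from the others on the first principal component, at 22.7 against values from -10.1 to 0.743 for the other 5 arrays, and single-gene differences from control of at least 0.05 log2 units that moved by more than 1.5 times or turned when it was left out are also given without it. Precision is limited by the number of arrays, 3 in each group.

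Most of the steroid synthesis genes gave dim signals. Of the 10 genes, 8 had a mean log2 signal below 6.04, the median of all genes. The dimmest was HSD3B1, at percentile 4.34 of all genes, and CYP11B1 was the brightest of these 8, at percentile 32.6. MC2R lay at percentile 8.58, HSD3B2 at 12.5, CYP11A1 at 18.3, CYP17A1 at 24.1, STAR at 25.0 and NR5A1 at 28.5. FDX1, at percentile 53.8, and SCARB1, at percentile 89.5, were the exceptions, and both genes are known to be active in many cell types outside steroid-making tissue. A percentile places a value within the range of these arrays and does not rank the amounts of transcripts, since probe sets differ in how strongly they bind.

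Genes typical of liver, pancreas and pituitary, organs that were not sampled, were read beside them to show how dim such probe sets were. All 11 measured genes of this list lay below the median of all genes, from percentile 1.08 for TSHB to 49.2 for LHB, with a median percentile of 12.7. The 8 dim steroid genes lay inside that range, but it takes in nearly every gene below the median, so this says little. HSD3B1, MC2R and HSD3B2 lay below the list's median percentile of 12.7, and the other dim steroid genes above it. The median percentile of all 10 steroid genes was 24.6. Without detection calls, and with unmeasured binding of mouse RNA, these values do not show whether a transcript was present.

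**Figure D1:**
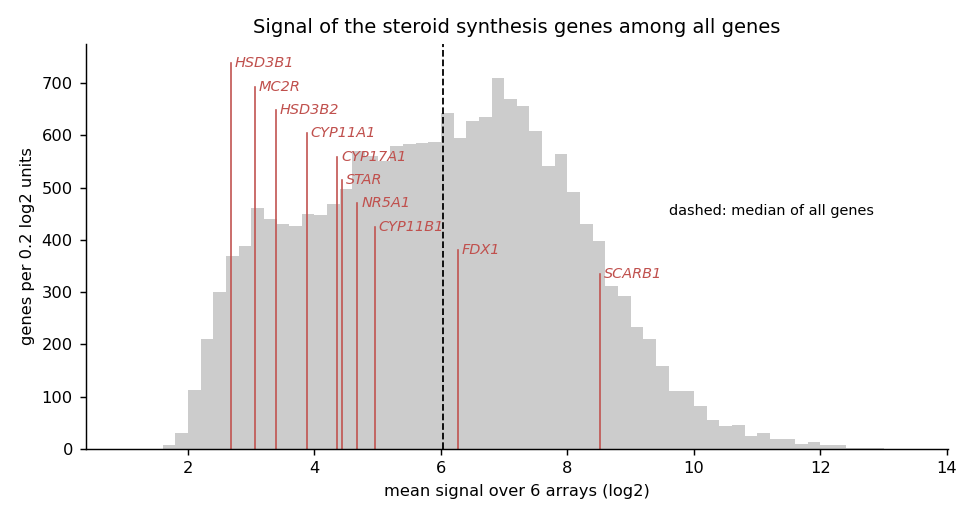
Number of genes (vertical axis, per 0.2 log2 units) by mean log2 signal over the 6 arrays (horizontal axis), with red lines at the 10 steroid synthesis genes and a dashed line at the median of all genes, 6.04. Only FDX1 and SCARB1 lie to the right of the median; HSD3B1 lies near the dim end.

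None of the 10 genes passed the test between BL-8040 and control tumours. In limma, fitted to all 18417 genes, 0 of 10 reached a Benjamini-Hochberg adjusted p under 0.05, where 0.00% of all genes did. At an unadjusted limma p under 0.05 stood 1 of the 10, HSD3B1, which was lower after BL-8040, against 7.72% of all genes in either direction and 5.08% in the lower direction. In the plot of differences the 10 values run from -0.19 to 0.13 log2 units, with a median of 0.01, where the median over all genes was -0.02. Higher means after BL-8040 were found for 6 of the 10 genes, against 41.5% of all genes. Without BL-8040 replicate 3 these counts were 5 of 10 and 45.4%, and 0 of the 10 genes had an unadjusted limma p under 0.05. The 95% limma intervals of the 10 fold differences, not adjusted for the number of genes, lay between 0.760-fold and 1.28-fold. In bulk samples, fewer cells of a type and less RNA per cell cannot be told apart.

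The ACTH receptor and the regulator of the pathway come first. MC2R read 2.93, 3.18 and 3.02 log2 units in BL-8040 tumours and 2.98, 3.20 and 3.05 in control tumours. The groups overlapped nearly completely, and replicate 2 was the highest array within each group. The MC2R difference was -0.03 ± 0.09 (SE), with a limma adjusted p of 0.928. NR5A1, the transcription factor that switches on most steroid enzymes, read 4.83, 4.68 and 4.69 in BL-8040 tumours and 4.63, 4.47 and 4.75 in control tumours. Control replicate 3 lay above both lower BL-8040 arrays, so that the groups overlapped, and control replicate 2 was the lowest. BL-8040 tumours averaged 4.73 ± 0.09 and control tumours 4.62 ± 0.14 (SD, n = 3 each). The 95% interval of this difference of 0.12 ran from -0.09 to 0.32, the limma adjusted p was 0.740, and without control replicate 2 the value was 0.04.

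Of the genes that bring cholesterol to the first enzyme, SCARB1, the receptor for high-density lipoprotein, had the highest signal percentile of the 10. Its values were 8.51, 8.63 and 8.22 log2 units in BL-8040 tumours and 8.58, 8.71 and 8.49 in control tumours. The lowest value belonged to BL-8040 replicate 3, while the other treated arrays lay within the control range. The SCARB1 difference of -0.14 ± 0.11 (SE) had a limma adjusted p of 0.745; it was -0.02 when BL-8040 replicate 3 was left out. STAR, the carrier that sets the pace of steroid synthesis, read 4.53, 4.25 and 4.52 in BL-8040 tumours and 4.38, 4.40 and 4.50 in control tumours. The highest and the lowest STAR values were both from treated tumours, and all control values lay between them. Its difference was 0.01 ± 0.09 (SE), with a 95% interval from -0.21 to 0.22, and -0.04 without BL-8040 replicate 3.

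CYP11A1, the side-chain cleavage enzyme that turns cholesterol into pregnenolone, read 3.85, 3.83 and 4.15 log2 units in BL-8040 tumours and 3.72, 3.97 and 3.79 in control tumours. BL-8040 replicate 3 was the highest array, and the other treated values lay inside the control range. The CYP11A1 difference of 0.12 ± 0.11 (SE) had a limma adjusted p of 0.767 and was 0.02 without that array. FDX1, the mitochondrial ferredoxin that also takes part in other mitochondrial reactions, read 6.39, 6.30 and 6.32 in BL-8040 tumours and 6.16, 6.25 and 6.20 in control tumours. It was the only one of the 10 genes whose groups did not overlap, against 14.0% of all genes (4.93% with BL-8040 higher and 9.05% with it lower). It was again the only one without BL-8040 replicate 3, where the share of all genes was 23.6%. Treated tumours averaged 6.33 ± 0.05 and controls 6.20 ± 0.05 (SD, n = 3 each), a 1.09-fold level. For this difference of 0.13 the 95% interval ran from -0.03 to 0.29, and the limma adjusted p was 0.660. Its exact permutation p was 0.1, two-sided, the smallest that 3 against 3 arrays can give. With 1 array left out, the FDX1 difference lay between 0.10 and 0.15, and it was 0.14 without BL-8040 replicate 3.

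**Figure D2:**
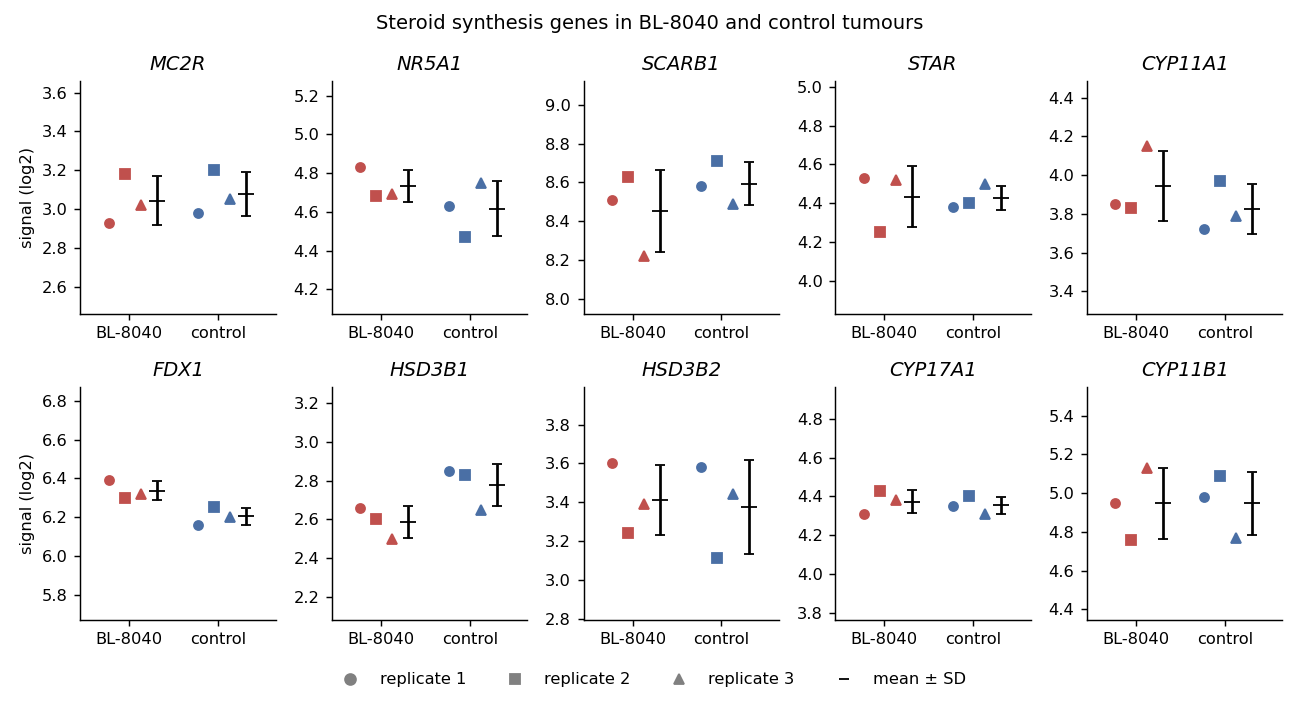
Log2 signal (vertical axes, each spanning 1.2 log2 units) of the 10 steroid synthesis genes in BL-8040 tumours (red, left) and control tumours (blue, right), with 1 symbol per replicate and black bars for mean ± SD (n = 3 each). The groups overlap in every gene but FDX1, whose treated values of 6.30 to 6.39 lie above the control values of 6.16 to 6.25.

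The HSD3B pair, enzymes that turn pregnenolone into progesterone, shares much of its sequence. In humans HSD3B2 is the form of adrenal and gonad, while HSD3B1 is that of placenta and other tissues. Each has a probe set of its own here, but how far each probe set also binds the other transcript cannot be told from these values. HSD3B1 read 2.66, 2.60 and 2.50 log2 units in BL-8040 tumours and 2.85, 2.83 and 2.65 in control tumours. Control replicate 3 lay just below BL-8040 replicate 1, so the groups overlapped by that pair, and the other control arrays stood above all treated ones. Mean HSD3B1 signal was 2.59 ± 0.08 in BL-8040 tumours and 2.77 ± 0.11 in control tumours (SD, n = 3 each), a fold of 0.877. The HSD3B1 difference of -0.19 ± 0.08 (SE) had an unadjusted limma p of 0.0493 and an adjusted p of 0.644, and the exact permutation p was 0.2. Its signal lay near the dim end of all genes. HSD3B2 read 3.60, 3.24 and 3.39 in BL-8040 tumours and 3.58, 3.11 and 3.44 in control tumours. In both groups replicate 1 was the highest HSD3B2 array and replicate 2 the lowest, and the difference between groups was 0.04 ± 0.13 (SE), with a limma adjusted p of 0.947.

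CYP17A1, which leads to cortisol and adrenal androgens in humans, was the steadiest of the 10 genes. Its values were 4.31, 4.43 and 4.38 log2 units in BL-8040 tumours and 4.35, 4.40 and 4.31 in control tumours. The 6 values spanned 0.13 log2 units, a range at percentile 5.43 of all genes, and the control values lay within those of treated tumours. CYP11B1, the enzyme of the last step to cortisol and corticosterone, read 4.95, 4.76 and 5.13 in BL-8040 tumours and 4.98, 5.09 and 4.77 in control tumours. Both groups averaged 4.95, with SDs of 0.18 after BL-8040 and 0.16 in controls, and the fold was 0.999 with a 95% interval from 0.834 to 1.20. The CYP11B1 difference was -0.09 when BL-8040 replicate 3 was left out. CYP11B2, the closely related aldosterone synthase, has a sequence so near to that of CYP11B1 that cross-reading of the probe sets cannot be told apart here. CYP11B2 read 4.57, 4.60 and 4.67 in BL-8040 tumours and 4.41, 4.61 and 4.52 in control tumours, with overlapping groups, and was named after its values were seen.

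**Figure D3:**
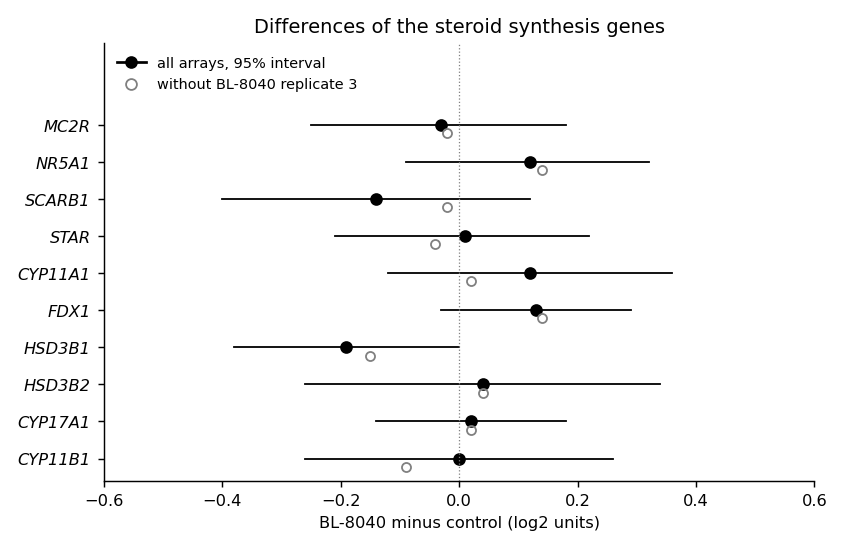
Difference between BL-8040 and control tumours (horizontal axis, log2 units) for each steroid synthesis gene, with 95% limma intervals as lines and, as open circles, the difference without BL-8040 replicate 3. All intervals but that of HSD3B1, which ends just below 0, include 0, and SCARB1 goes to -0.02 and CYP11A1 to 0.02 without that array.

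Across the tumours the genes did not move as a block. The median deviation of the 10 genes from their own 6-array means was -0.01, -0.03 and 0.02 log2 units in BL-8040 replicates 1, 2 and 3, against -0.03, 0.06 and -0.03 in control replicates 1, 2 and 3. No array held the highest value of more than 4 of the 10 genes. BL-8040 replicate 1 held it for 4, NR5A1, STAR, FDX1 and HSD3B2, while control replicate 3 held it for 0. The largest single deviations were -0.31 for SCARB1 and 0.26 for CYP11A1, both in BL-8040 replicate 3, and -0.28 for HSD3B2 in control replicate 2. On a linear scale the summed signal of the 8 dim genes, in arbitrary units, was 143, 132 and 147 in BL-8040 tumours and 138, 139 and 136 in control tumours. The highest and the lowest sums were thus both from treated tumours, and the groups overlapped.

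**Figure D4:**
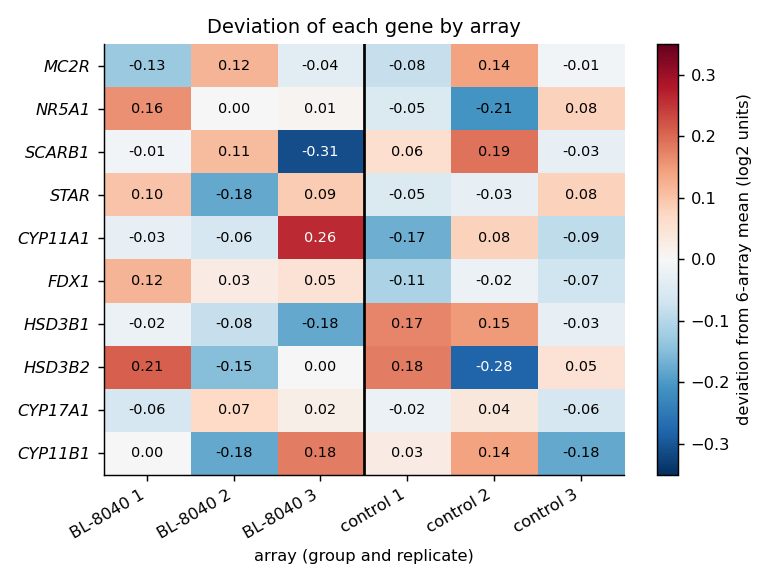
Deviation of each steroid synthesis gene (rows) from its own mean over the 6 arrays, in log2 units, for BL-8040 replicates (left of the line) and control replicates (right of it). Red is above and blue below the mean; no column is of a single colour, and only FDX1 is above its mean in all treated and below it in all control arrays.

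The average profile of the 10 genes, each scaled to its own spread, was followed by few of the genes that make it up. Their Pearson r to it, each gene being part of the profile, ran from -0.20 for HSD3B2 to 0.74 for CYP11B1 over 6 arrays, given here as a description. Among all other genes the most alike were NFX1 (r = 0.997), PEX19 (0.995), KCMF1 (0.984), SLC25A44 (0.983) and PHLPP1 (0.983). An r of at least 0.9 was reached by 86 of 18417 genes. The named genes were picked as the highest of that many r values, and no test against chance was made. Of 93 measured genes of the wider steroid pathway, the most alike was SULT2A1, with an r of 0.953. It is the sulfotransferase that makes DHEA sulfate in the human adrenal. PRKACA followed at 0.883 and NR3C2 at 0.881. SULT2A1 read 3.42, 2.98 and 3.32 log2 units in BL-8040 tumours and 2.89, 3.22 and 2.82 in control tumours. Its groups overlapped, and its signal was at percentile 9.23 of all genes.

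The wider pathway was read through 6 lists that together held 93 measured genes. In limma 0 of the 93 passed at an adjusted p under 0.05, and 4 had an unadjusted p under 0.05, 1 higher and 3 lower after BL-8040, against 2.64% and 5.08% of all genes. Higher means were found for 38 genes and lower means for 55, with a median difference of -0.03 log2 units, and without BL-8040 replicate 3 the counts were 42 and 51. The groups did not overlap for 4 of the 93 with BL-8040 higher and 5 with it lower, against 4.93% and 9.05% of all genes. Another 9 listed genes were not analysed here.

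Among 23 other steroid enzymes, 10 were higher and 13 lower, with a median difference of -0.02, and without BL-8040 replicate 3 the counts were 14 and 9. HSD17B2, which inactivates estradiol and testosterone, read 4.0, 4.22 and 4.19 log2 units in BL-8040 tumours and 4.29, 4.62 and 4.30 in control tumours. All treated HSD17B2 values were below all controls, and its difference of -0.27 ± 0.11 (SE) had a limma adjusted p of 0.644. HSD17B12, which works mainly in fatty acid elongation, read 7.90, 7.85 and 7.96 in BL-8040 tumours and 7.83, 7.75 and 7.51 in control tumours. Here the treated values were all higher, and the difference of 0.20 was 0.11 without control replicate 3. HSD11B1, which reactivates cortisol, differed by 0.23 ± 0.12 (SE), with overlapping groups. The HSD11B1 value was 0.13 without BL-8040 replicate 3; leaving out BL-8040 replicate 1 gave 0.34.

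The 16 genes of cholesterol supply (7 higher, 9 lower, median -0.02) included VDAC1, a channel of the outer mitochondrial membrane, with 8.04, 8.04 and 8.03 log2 units in BL-8040 tumours and 7.90, 7.85 and 7.97 in control tumours. VDAC1 was higher in every treated array than in any control, by 0.13, with a limma adjusted p of 0.661. LIPE, the lipase that frees cholesterol from its stored esters, differed by -0.20 and TSPO, a mitochondrial outer membrane protein, by -0.16, each with overlapping groups. Without BL-8040 replicate 3 the TSPO difference was -0.06.

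In the 20 genes of ACTH and cyclic AMP signalling (9 higher, 11 lower, median -0.02) PDE8A, a phosphodiesterase that breaks down cyclic AMP, read 7.47, 7.47 and 7.49 in BL-8040 tumours and 7.35, 7.34 and 7.17 in control tumours. These groups did not overlap, and the difference was 0.19 ± 0.08 (SE) with a limma adjusted p of 0.644. AKAP1, an anchor of protein kinase A at mitochondria, differed by -0.20 and the adenylate cyclase ADCY1 by -0.18. Both had their lowest value in BL-8040 replicate 3, and without it the differences were -0.07 and -0.09. MRAP, the partner that brings the ACTH receptor to the cell surface, had a dim signal at percentile 25.7 and differed by -0.10; it was singled out after its values were seen.

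Of 19 regulators of adrenal cortex development, 7 were higher and 12 lower (median -0.03), and 0 had an unadjusted limma p under 0.05. DLK1, a Notch-related surface protein found in adrenal progenitors and also in neuroblastoma cells, lay at percentile 99.9 of all genes, at 12.19, 12.16 and 11.76 in BL-8040 tumours and 12.18, 12.28 and 12.17 in control tumours. BL-8040 replicate 3 held its lowest value, and the DLK1 difference of -0.18 was -0.04 when that array was left out. INHA, the inhibin alpha subunit, differed by -0.19 and CCN3, a secreted matrix-associated protein, by 0.15, each with overlapping groups, and CCN3 was 0.07 without BL-8040 replicate 3. The 10 genes of aldosterone-producing cells (3 higher, 7 lower, median -0.11) included AGTR2, an angiotensin receptor, at 2.68, 2.63 and 2.68 in BL-8040 tumours and 2.76, 2.96 and 2.86 in control tumours. AGTR2 was lower in every treated array, at percentile 5.17 of all genes, with a difference of -0.20 and a limma adjusted p of 0.644. ATP2B3, a calcium pump, differed by -0.31 ± 0.13 (SE) and CACNA1H, a calcium channel, by -0.12 ± 0.07 (SE). ATP2B3 was at -0.20 when BL-8040 replicate 3 was left out. Without that array 1 gene of this list was higher and 9 lower, where 54.6% of all genes were lower (58.5% with all arrays). All 10 genes of the list lay below the median signal of all genes. CACNA1D, a calcium channel of this list, went the other way. It read 4.13, 3.87 and 4.54 in BL-8040 tumours and 3.79, 4.02 and 4.14 in control tumours, with overlapping groups. CYP11B2, the aldosterone synthase, was counted among the other steroid enzymes and was higher after BL-8040 by 0.10, with overlapping groups. Among 5 steroid hormone receptors, 2 were higher and 3 lower, and the values of PGR (-0.14), ESR1 (-0.08) and NR3C2 (0.06) overlapped between groups. PGR was at -0.05 and ESR1 at -0.14 without BL-8040 replicate 3.

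**Figure D5:**
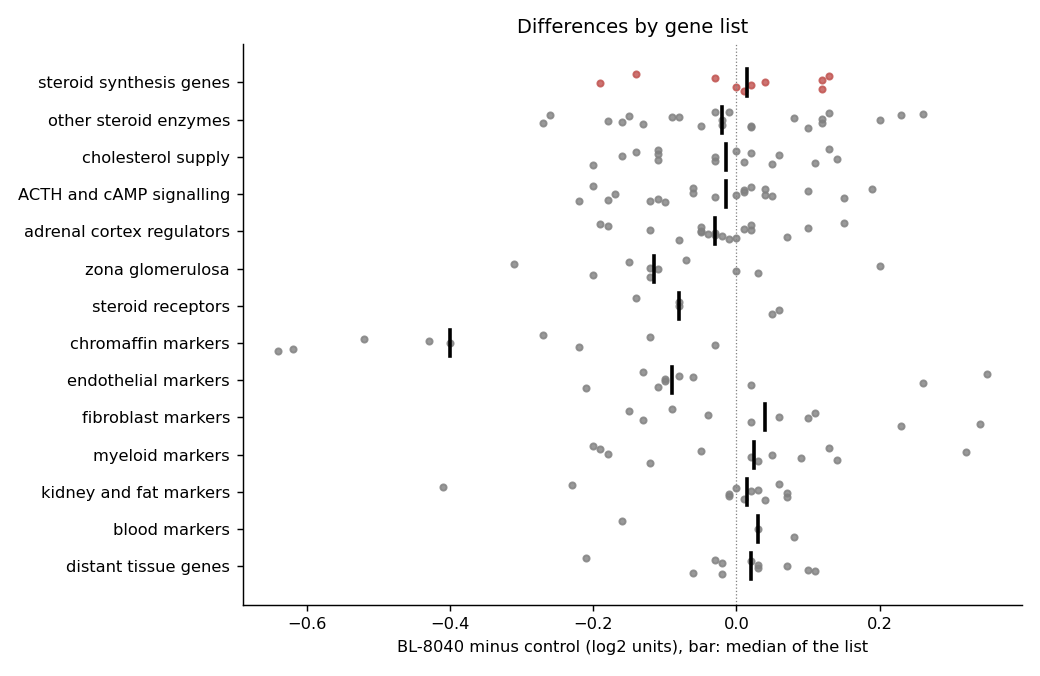
Difference between BL-8040 and control tumours (horizontal axis, log2 units) of every measured gene, by list, with 1 point per gene and a black bar at the median of each list. The medians of the steroid synthesis genes (0.01) and of the pathway lists lie between -0.11 and 0.01, and that of the chromaffin markers is -0.40.

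Markers of other cells that an adrenal tumour could hold were read beside these genes. All 9 chromaffin markers, which neuroblastoma cells share with the adrenal medulla, had lower means after BL-8040, against 58.5% of all genes. These were 7 of 9 and 54.6% without BL-8040 replicate 3. Their median difference was -0.40, and -0.15 when BL-8040 replicate 3 was left out. Their summed linear signal ran from 1911 to 3819 in BL-8040 tumours and from 3004 to 4397 in control tumours, with overlapping groups. The lowest sum was that of BL-8040 replicate 3, which held the lowest value of every chromaffin marker but PNMT. PNMT, the adrenaline-making enzyme of the medulla, lay at percentile 31.5 with a difference of -0.03. Of the others, TH differed by -0.64, SLC18A1 by -0.52 and CYB561 by -0.27, with overlapping groups. When BL-8040 replicate 3 was left out, TH was at -0.18, SLC18A1 at -0.23 and CYB561 at -0.22. PNMT was named after its values were seen. Endothelial markers (3 of 10 higher, median -0.09) gave summed signals of 981 to 1202 in BL-8040 tumours and 872 to 929 in control tumours. EMCN, an endothelial sialomucin, had a difference of 0.35 with a limma adjusted p of 0.644. It made up most of these sums, and the other 9 endothelial markers summed to 262, 257 and 294 in BL-8040 tumours and 274, 287 and 296 in control tumours, with overlapping groups. The junction proteins PECAM1 and CDH5 differed by -0.21 and -0.11, each with all treated values below all controls. Taken singly, 1 of the 10 endothelial markers, EMCN, had groups that did not overlap with BL-8040 higher. The same held for 3 with BL-8040 lower, against 4.93% and 9.05% of all genes. Fibroblast markers (6 of 10 higher, median 0.04) had summed signals of 4610 to 4917 in BL-8040 tumours and 4473 to 4746 in control tumours, with LUM at 0.10, DCN at -0.13 and COL1A1 at 0.23. With BL-8040 replicate 3 left out, 4 of these 10 were higher, with DCN at -0.00 and COL1A1 at -0.03. For myeloid markers (7 of 12 higher, median 0.03) the sums were 557 to 617 in BL-8040 tumours and 561 to 586 in control tumours, with LYZ at 0.32, CD163 at -0.19 and TYROBP at -0.20. Groups did not overlap for 1 of these 12 with BL-8040 higher and 1, TYROBP, with it lower, against 4.93% and 9.05% of all genes. Kidney and fat markers (8 of 12 higher, median 0.02) summed to 361 to 375 in BL-8040 tumours and 370 to 412 in control tumours. CFD, the complement factor adipsin of fat cells, read 6.64, 6.62 and 6.38 in BL-8040 tumours and 6.87, 6.95 and 7.06 in control tumours. Its groups did not overlap, as in 14.0% of all genes, and the difference of -0.41 ± 0.09 (SE) had a limma adjusted p of 0.644. LEP differed by -0.23 and CUBN by 0.07. With all arrays the other fat markers were not lower on average, and their groups overlapped. ADIPOQ was at 0.02, PLIN1 at 0.03 and FABP4 at 0.00, and CIDEC averaged 4.79 in BL-8040 and 4.74 in control tumours. BL-8040 replicate 3 held the highest value of ADIPOQ, PLIN1 and FABP4 and the lowest of CIDEC. In BL-8040 replicates 1 and 2, ADIPOQ (3.64, 3.69) and FABP4 (2.37, 2.58) lay below their control means of 3.8 and 2.59. PLIN1 (5.48, 5.58) lay on either side of its control mean of 5.57, and CIDEC (4.85, 4.93) above its own. Without BL-8040 replicate 3, 4 of the 12 kidney and fat markers were higher, and CUBN was at 0.13. The 3 blood markers, SLC4A1 (-0.16), HBB (0.08) and ALAS2 (0.03), overlapped between groups, as did LHB (-0.21), APOA2 (0.11) and GCG (0.07) among the genes of distant organs, whose median difference was 0.02. Without BL-8040 replicate 3 the values were -0.24 for SLC4A1, -0.05 for HBB, -0.03 for ALAS2, 0.05 for APOA2 and 0.02 for GCG, and the median of the distant organ genes was -0.08. By signal, the fibroblast list had a median percentile of 92.2, the endothelial list 28.8 with EMCN at 96.3, and the myeloid list 19.2. The brightest myeloid marker lay at percentile 83.3. How far human tumour cells or mouse host cells gave these signals was not measured. The part of these markers in the values of the steroid synthesis genes was not tested.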

How the data were processed

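Trizol-extracted RNA of 6 tumours was labelled from 200 ng each, per the labels' protocols. The authors deposited log2 values, 1 column per array, with a range of 1.08 to 13.2. The submitters' processing notes name Partek 6.6; how background, normalization and probe summarization were handled is not given there. No detection calls, probe sequences or human genome were used, so no positions are printed.

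Platform annotation gave 1 symbol to 19460 of 33297 probe sets, and the brightest per gene was kept (18417 genes). Each of the 10 steroid synthesis genes has 1 such probe set. BL-8040 was compared with control, 3 arrays each, by limma 3.58.1 in R 4.3.3 (lmFit, eBayes, two-sided), with Benjamini-Hochberg adjustment across the genes at 0.05; SE is the moderated standard error. The fit was run on simulated data, where recovery was required only of the largest added changes, beyond any difference of the 10 genes. The members and lists were chosen with earlier results of these data known. Named are all 10 genes, the 3 with the smallest p in each other list, and those most alike in profile. CYP11B2, MRAP, CACNA1D, PNMT, TSHB, ADIPOQ, PLIN1, FABP4 and CIDEC were added after their values were seen. The design text speaks of mice, so the spread is taken to be that between animals. Alternatives were other scaling, probe set means, variance trend, array weights, a replicate block, dim filters and leaving out each array.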

Additional observations from a re-analysis of the deposited data

How the results depend on the processing

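Under 14 alternatives (quantile normalization, median centring, probe set means, variance trend, array weights, replicate block, both dim filters and leaving out each array) 0 of the steroid synthesis genes and 0 of all genes passed at an adjusted limma p under 0.05. In each of these settings 0 of all genes passed at 0.1, and the lowest adjusted limma p of any gene was 0.224, seen when BL-8040 replicate 1 was left out. Each dim filter kept 2 of the 10 genes, FDX1 and SCARB1, so no median was taken there. Of 124 values computed for the 10 genes, 111 kept their direction, and the 13 that turned all came from leaving out 1 array: STAR lay between -0.04 and 0.10, CYP11B1 between -0.09 and 0.09, CYP17A1 between -0.01 and 0.06, HSD3B2 between -0.10 and 0.14 and MC2R between -0.10 and 0.03. HSD3B1 no longer had an unadjusted p under 0.05 (0 genes) with median centring, variance trend or array weights, or without BL-8040 replicate 2 or 3 or control replicate 1 or 2 (leave-one-out counts of 0 to 1). The count of all genes at this p, 1422, was 714 and 727 with the median and log2 6 filters, which test fewer genes, and 905 without control replicate 2 to 1838 without control replicate 1. The median of the 10 genes lay between -0.00 and 0.09 with 1 array left out, the highest without BL-8040 replicate 2.

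List medians moved by more than their replicate spread in a few settings: other steroid enzymes (0.02 with array weights; -0.04 to 0.02 with 1 array left out), cholesterol supply (0.01 with either filter; -0.07 to 0.01), steroid receptors (0.01 with probe set means, as was ESR1 itself; -0.10 to 0.01), myeloid markers (-0.12 with either filter), kidney and fat markers (-0.03 with array weights; -0.05 to 0.04) and distant organs (-0.08 to 0.06). HBB was -0.03 and ALAS2 -0.01 with array weights. With 1 array left out COL1A1 lay between -0.03 and 0.43, CUBN between -0.02 and 0.13, HBB between -0.05 and 0.26, ALAS2 between -0.05 and 0.10 and PRKACA between -0.07 and 0.09. The cause of these changes was not tested.

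Deviations of same-numbered arrays correlated across genes at -0.04, 0.02 and 0.08, which gave no sign of pairing by replicate number but cannot exclude it. With the replicate block 0 genes passed, as in every setting, so that count does not bear on pairing. The smallest adjusted limma p of any gene was 0.443 with the block and 0.644 in the main fit. Without detection calls, how far the 8 genes below the median signal lie above background is not known.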
